A study of Homo sapiens with 8 samples.

Results

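This comparison set the 4 arrays of cells expressing TIA1 or TIAR against the 4 arrays of cells expressing GFP or HuR, which are all 8 arrays of the series. The cells were FT293, a HEK293 line in which a single genomic site is meant to take up 1 transgene. Each transgene codes for GFP alone or for GFP fused to HuR, TIA1 or TIAR. Whether the lines are alike apart from the transgene was not tested. Tetracycline switches the transgene on, and RNA was taken on day 3 of treatment in all 4 lines, the GFP control included. Each line is represented by 2 arrays. The labels do not say whether these came from separate cultures, so the spread between them may be technical, and each protein is represented by 1 line only. HEK293 cells also carry adenoviral early genes whose products bind p53 and the retinoblastoma protein.

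TIA1 and its close relative TIAR, encoded by TIAL1, are RNA-binding proteins that recognize uridine-rich stretches in pre-mRNAs and mRNAs. In the nucleus they help the splicing machinery to use weak 5′ splice sites, and in the cytoplasm they repress translation of mRNAs with AU-rich elements (AREs) and gather in stress granules when cells are stressed. HuR, encoded by ELAVL1, also binds AU-rich and uridine-rich RNA but is known mainly for stabilizing its targets, so that a gene placed on one side by both TIA proteins is here read against a neutral protein and against another ARE-binding protein at the same time.

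A value below is a log2 signal relative to the 75th percentile of its array, and a gene is represented by its brightest tested probe. Of 36337 gene names on the arrays, 20805 had a probe well above background on at least 4 of the 7 arrays other than GFP 1. GFP 1 stood apart from the other arrays. On it 86.0% of probes were well above background, against 53.2% to 58.5% elsewhere, its mean local background was 83.2 intensity units against 35.7 to 41.5, and its bright genes read low, so that counts are also given without it. All arrays lay on 1 slide, where one row held the GFP and TIA1 arrays and the other the TIAR and HuR arrays, so that each row held 1 TIA line and 1 control line. Of 9 markers of HEK293 cells, 7 were well above background on all 7 arrays other than GFP 1, while STMN2 was above it on 0 of them. Of 25 markers of blood, endothelium, fibroblasts, hepatocytes, epithelium and muscle with a probe, 11 were above background on all 7 and 7 on 0. Of the 25, 3 were higher on all 4 TIA arrays than on all controls and 0 were lower. They were CD14 of blood cells, between 0.20 and 0.74 against -1.24 and -0.28, the hepatocyte marker ALB, between -2.55 and -2.19 against -5.46 and -3.15, and the muscle marker ACTA1, between 0.62 and 0.79 against -1.34 and 0.02. ALB was well above background on 2 of the 4 control arrays, so its control range lay partly at background. The other hepatocyte markers, APOA1 and SERPINA1, and the muscle marker DES overlapped, and MYH2 of muscle was above background on 0 of the 4 TIA arrays and 1 of the 4 controls. The part of other cell types in the results was not tested.

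For 2882 genes all 4 TIA arrays lay above all 4 control arrays, which is 13.9% of the 20805 genes tested, and for 1423 genes (6.84%) all 4 lay below. The distance that separated the groups was mostly small. Measured from the lowest array of the higher group to the highest array of the lower group, it had a median of 0.21 for genes that were higher and 0.18 for genes that were lower, and it was under 0.1 for 1265 genes. The closest genes on either side of the rule had distances of 4.96e-05 and -5.64e-05. The gap exceeded 1, a doubling between the nearest arrays, for 176 genes that were higher and 30 that were lower. The widest gap was 3.28 upwards and 1.79 downwards. A limma fit that treated arrays of a line as correlated called 413 genes higher (1.99% of the genes tested) and 152 lower (0.731%) where the means differed 2-fold or more and the adjusted p was under 0.05. All of the called genes also separated. Without GFP 1, 3932 genes separated upwards and 3554 downwards, with 627 and 274 called. Without GFP 2, which leaves GFP 1 alone for its line, 4048 and 1658 separated and 0 were called by limma, with 2156 genes at an unadjusted p under 0.05. Without a TIA array the calls lay between 144 and 254 upwards and between 33 and 79 downwards. Of the separating genes 66.9% were higher with the TIA proteins, and 51.2% were when the 75th percentile was taken only over probes above background on all 7 other arrays. With 1 value per line, 0 genes passed limma's adjusted threshold and 2595 had an unadjusted p under 0.05, so the calls rest on arrays of the same line counting as partly separate samples.

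The genes of the expressed proteins were examined first. The brighter TIA1 probe (chromosome 2 from 70436698 to 70436757 on hg19) read 0.34 and 0.76 on the GFP arrays, 0.58 and 0.68 on the HuR arrays, -0.37 and -0.44 on the TIA1 arrays and -1.17 and -0.78 on the TIAR arrays. All 4 TIA arrays were lower than all controls, with a difference between the group means of -1.28 (SE 0.25, limma adjusted p = 0.0333). The other TIA1 probe also separated downwards with a difference of -0.53, so neither probe was raised in the line that expresses TIA1. The brighter TIAL1 probe (chromosome 10 from 121336676) read 2.44 and 3.05 on the GFP arrays, 3.08 and 3.14 on the HuR arrays, 2.2 and 2.29 on the TIA1 arrays and 5.47 and 5.56 on the TIAR arrays. It was high in TIAR-expressing cells and lowest in TIA1-expressing cells, so the groups overlapped, while the dimmer TIAL1 probe was lower on all 4 TIA arrays with a difference of -0.47. The ELAVL1 probe read 1.47 and 1.5 on the GFP arrays, 0.95 and 1.04 on the HuR arrays, 0.29 and 1.01 on the TIA1 arrays and 0.83 and 1.4 on the TIAR arrays, and was not highest in the HuR line. The files do not say which parts of the transcripts the transgenes carry, so the TIA1 and ELAVL1 probes do not check the labels of their lines.

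Among genes with a signal in every line, the widest gaps upwards belonged to genes of diverse function. MIR7-3HG, the host transcript of a miR-7 microRNA, read -1.56 and -1.55 on the GFP arrays, -2.15 and -1.91 on the HuR arrays, 1.25 and 1.36 on the TIA1 arrays and 1.37 and 1.66 on the TIAR arrays. Its TIA and control arrays were 2.79 apart and its means differed by 3.2 (SE 0.22, limma adjusted p = 0.0014), or 9.19-fold. FAM57B (now TLCD3B), related to ceramide synthases, read -0.56 and -1.58 on the GFP arrays, -1.84 and -1.5 on the HuR arrays, 2.69 and 2.48 on the TIA1 arrays and 2.19 and 2.56 on the TIAR arrays, and its difference of 3.85 was the largest among the 15 genes with the widest gaps. DHDH, a dihydrodiol dehydrogenase, read -1.09 and -1.06 on the GFP arrays, -0.58 and -0.71 on the HuR arrays, 2.22 and 2.08 on the TIA1 arrays and 1.8 and 2.07 on the TIAR arrays, so it passed from below to above the 75th percentile of the array in both TIA lines. CYP2C18, a cytochrome P450, was also higher, with a difference of 3.77 and a wider spread among the controls, from -5.70 to -4.16. A signal in every line asks for a single array per line well above background. The difference of a gene with controls this low may therefore be taken partly against background.

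NEFH, the heavy neurofilament chain, read -3.01 and -4.25 on the GFP arrays, -4.33 and -3.99 on the HuR arrays, -1.05 and -1.12 on the TIA1 arrays and -1.15 and -1.06 on the TIAR arrays, a difference of 2.8 (SE 0.37, limma adjusted p = 0.0101). RNF112, a ubiquitin ligase found mainly in brain, differed by 2.62, GDAP1L1, a paralogue of the neuropathy gene GDAP1, by 2.72, and PCDH20, a protocadherin, by 3.21. ALS2CR8 (now CARF), a calcium-responsive transcription factor, was tight within both groups, from -3.94 to -3.68 in the controls and from -1.57 to -1.35 in the TIA lines. IGFALS, which carries insulin-like growth factors in blood, rose by 2.7, and the Rh antigen gene RHCE, the netrin NTN5, the connexin GJB7, the zinc finger gene ZNF671 and FRG2 rose by 2.21 to 3.3. All 15 were called, with adjusted p from 0.0014 to 0.0254 from limma. RHCE and FRG2 have near-identical copies in the genome, whose transcripts their probes may share.

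For 27 genes that were higher, the probe was not well above background on any control array. These genes passed the filter only through the TIA arrays, so they had to differ and their number is a description. The largest bound belonged to XLOC_004607, a transcript with no gene symbol, which read -6.28 and -6.66 on the GFP arrays, -6.16 and -5.71 on the HuR arrays, -1.74 and -1.78 on the TIA1 arrays and -2.43 and -2.33 on the TIAR arrays and was at least 9.76-fold higher. PAPPA, a secreted protease that cleaves insulin-like growth factor binding proteins, was at least 5.43-fold higher. It read -6.37 and -6.59 on the GFP arrays, -5.77 and -5.37 on the HuR arrays, -3.6 and -3.8 on the TIA1 arrays and -2.14 and -2.0 on the TIAR arrays, higher with TIAR than with TIA1 by 1.63 (adjusted p = 0.0378 from limma). TMEM190, a small membrane protein, was at least 5.27-fold higher, and the bounds for SSPO, the gene of SCO-spondin, and the pseudogene CEACAM22P were at least 4.49- and 4.2-fold. A bound is the mean of the TIA arrays over the lowest signal that counts as above background on each control array.

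Genes that were lower had narrower gaps. E2F5, a member of the E2F family that represses cell cycle genes, read 0.39 and 0.79 on the GFP arrays, 1.26 and 1.36 on the HuR arrays, -1.18 and -1.31 on the TIA1 arrays and -1.25 and -1.32 on the TIAR arrays. It fell by 2.22 on the log2 scale, with a gap of 1.57 and an adjusted p of 0.00668 from limma. BEND6, a corepressor of Notch targets, read -0.41 and -0.99 on the GFP arrays, -1.09 and -1.0 on the HuR arrays, -2.88 and -2.89 on the TIA1 arrays and -3.04 and -3.24 on the TIAR arrays, and both of its probes separated. PLA2G7, which inactivates platelet-activating factor, read -2.09 and -2.14 on the GFP arrays, -2.06 and -2.15 on the HuR arrays, -4.56 and -5.32 on the TIA1 arrays and -3.92 and -4.51 on the TIAR arrays, with the 4 controls close together and the TIA arrays more spread. The lowest of its TIA values may lie at background. The transcription factor gene SOX21 fell by 1.81 and GHRL, the gene of ghrelin, by 1.88. ITGB1BP2 (melusin) fell by 2.39 and TCTEX1D2 (now DYNLT2B), a dynein light chain, by 2.20. FAM86B1 and the sialyltransferase gene ST6GALNAC5 separated but were not called, with adjusted p of 0.0725 and 0.117 from limma. Both read 0.07 on GFP 1, far above the other controls, and FAM86B1 belongs to a family of near-identical copies.

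FAH and GSTZ1 catalyse neighbouring steps at the end of tyrosine breakdown. FAH read 1.3 and 1.83 on the GFP arrays, 1.34 and 1.46 on the HuR arrays, -0.95 and -0.85 on the TIA1 arrays and 0.07 and 0.19 on the TIAR arrays, and GSTZ1 read 1.35 and 1.87 on the GFP arrays, 1.82 and 1.76 on the HuR arrays, -0.3 and -0.07 on the TIA1 arrays and 0.19 and 0.16 on the TIAR arrays. Both were lower in every TIA array with differences of -1.87 and -1.7. FAH read lower on the TIA1 than on the TIAR arrays, a difference that missed the adjusted threshold. HRSP12 (now RIDA), which removes reactive imines left by amino acid metabolism, read 1.68 and 2.24 on the GFP arrays, 1.91 and 1.92 on the HuR arrays, -0.01 and -0.1 on the TIA1 arrays and 0.44 and 0.42 on the TIAR arrays. SHPK, sedoheptulokinase, fell by 1.70, NT5M, a mitochondrial nucleotidase, by 1.96 and SRD5A3, which makes dolichol for protein glycosylation, by 1.66. All 6 were called.

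**Figure D1:**
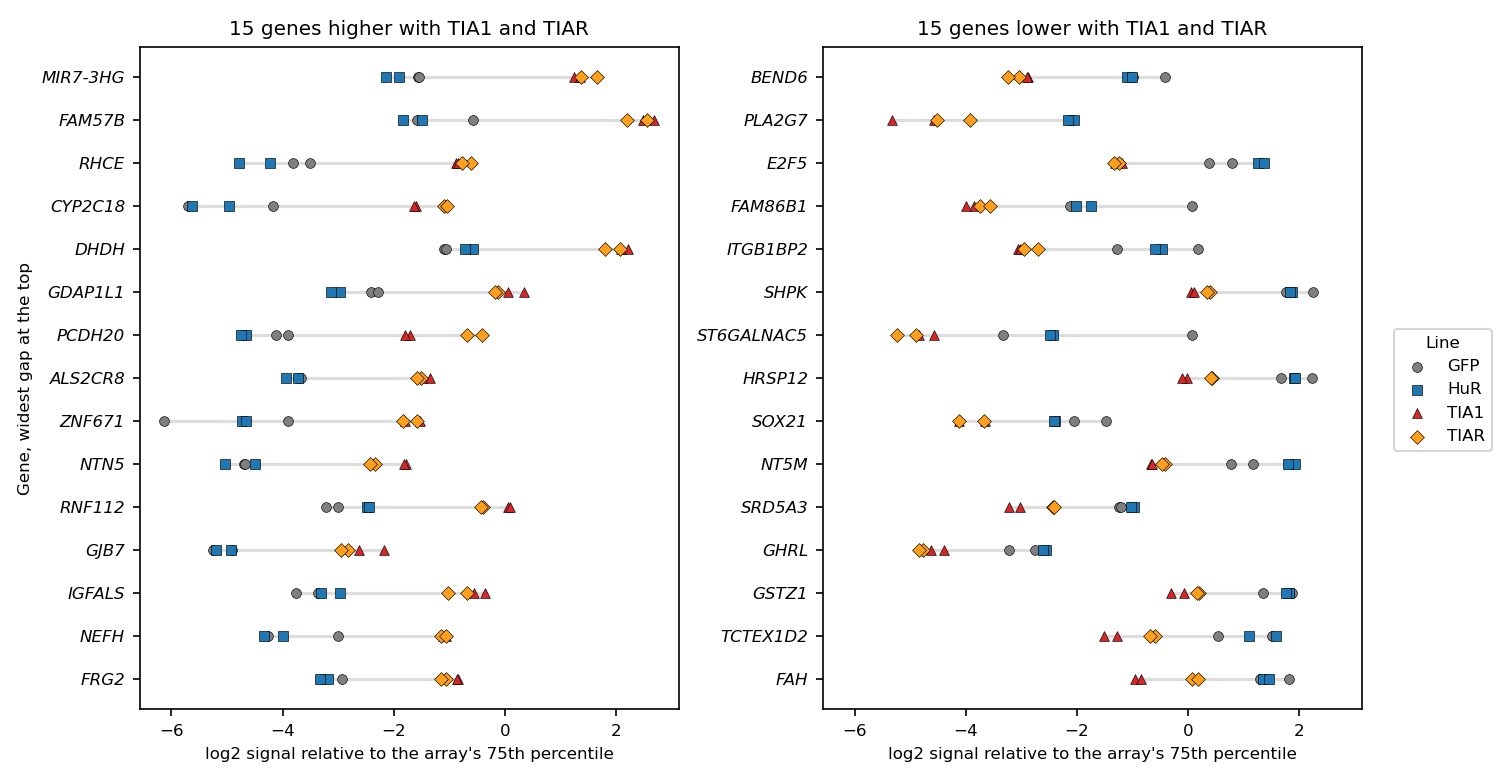
Log2 signal relative to the 75th percentile of the array (horizontal axis) for the 15 genes with the widest gap in each direction among genes with a signal in every line; each point is 1 array, coloured by line. The TIA1 and TIAR points lie on one side of the GFP and HuR points in every row, as the rule requires, and FAM86B1 and ST6GALNAC5 show GFP 1 apart at 0.07.

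Transcripts with only a clone or reading frame name moved as well. C5orf27 (now LINC01554) read -2.92 and -2.93 on the GFP arrays, -2.82 and -2.66 on the HuR arrays, 0.11 and -0.04 on the TIA1 arrays and 0.45 and 0.4 on the TIAR arrays, a difference of 3.06 (SE 0.19, limma adjusted p = 0.0014). XLOC_013958 and ENST00000382320 were higher by 2.45 and 2.38. In the other direction C6orf57 (now SDHAF4), an assembly factor of respiratory complex II, read 0.23 and -0.35 on the GFP arrays, 0.4 and 0.24 on the HuR arrays, -2.12 and -2.25 on the TIA1 arrays and -1.77 and -1.92 on the TIAR arrays, and XLOC_012259 and XLOC_008583 fell by 2.49 and 2.50.

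Gene lists were compared by how many of their tested members separated, beside 13.9% upwards and 6.84% downwards for all genes, and by the median difference, which was 0.06 over all genes. These shares are those of all arrays. Without GFP 1, 3932 of the 20805 genes separated upwards and 3554 downwards, and after quantile normalization 3075 and 2064 did. List counts under those settings are to be read beside these. Downward separations thus rose without GFP 1 over all genes and not only in the lists. The lists were chosen with earlier results of these data known, and the counts carry no test of the list.

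Of 46 p53 targets tested, 18 were higher on all 4 TIA arrays and 0 were lower, with a median difference of 0.51, and 7 were called. The study singled out p53 signalling in these samples, so the direction of the list is not independent evidence. GADD45B, a stress-induced growth arrest gene, read 2.57 and 3.1 on the GFP arrays, 2.31 and 2.28 on the HuR arrays, 3.99 and 4.1 on the TIA1 arrays and 3.98 and 3.95 on the TIAR arrays, a difference of 1.44 (SE 0.24, limma adjusted p = 0.0191). BBC3, the gene of the BH3-only killer protein PUMA, read 2.43 and 2.73 on the GFP arrays, 2.72 and 2.74 on the HuR arrays, 3.88 and 4.01 on the TIA1 arrays and 3.68 and 3.75 on the TIAR arrays. PIDD (now PIDD1), which builds a caspase-2 activating complex, read 3.11 and 3.77 on the GFP arrays, 3.29 and 3.12 on the HuR arrays, 5.03 and 5.25 on the TIA1 arrays and 4.63 and 4.78 on the TIAR arrays. The gaps of these 3 genes were 0.85, 0.94 and 0.86. DDB2, a sensor of ultraviolet damage, differed by 1.37, DRAM1, a lysosomal inducer of autophagy, by 1.16 and ZMAT3, an RNA-binding target of p53, by 1.12. IGFBP3, which binds insulin-like growth factors, lay between -3.53 and -3.29 on the TIA arrays and was well above background on 1 of the 4 control arrays, which lay between -7.58 and -4.79, so its fitted difference of 3.23 is taken mostly against background. Feedback and arrest genes were less uniform. PPM1D, the phosphatase that turns p53 signalling off, separated with a difference of 0.69 and was not called, while CDKN1A, the p21 inhibitor of cyclin-dependent kinases, read -2.52 and -2.35 on the GFP arrays, -2.56 and -2.12 on the HuR arrays, -1.51 and -1.52 on the TIA1 arrays and -2.13 and -2.14 on the TIAR arrays and overlapped. Without GFP 1 the counts were 21 higher and 2 lower and the median was 0.42.

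The BCL2 family and the caspases had 11 of 37 members higher, 1 lower and a median of 0.32, and only BBC3 was called. The BH3-only genes BMF, BIK, BCL2L11 (BIM) and BAD separated upwards with differences of 1.2, 0.89, 0.67 and 0.49. So did CASP6, an executioner caspase, by 0.57, and APAF1, the scaffold of the apoptosome, by 0.74. The survival gene BCL2A1 was the one that separated downwards with a difference of -0.69. Without GFP 1 the median of the list was 0.17, with 11 genes higher and 7 lower.

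Of 59 G1 and S phase genes, 22 were higher and 3 lower, with 4 called higher and 1 lower. Without GFP 1, 22 were higher and 8 lower and the median fell from 0.34 to 0.18, and without GFP 2 or any 1 of the TIA arrays 0 were called higher. E2F2, an activator of S phase genes, read 2.8 and 3.36 on the GFP arrays, 3.53 and 3.71 on the HuR arrays, 4.69 and 4.8 on the TIA1 arrays and 4.62 and 4.76 on the TIAR arrays, a difference of 1.37 (SE 0.25, limma adjusted p = 0.0267). E2F1 read 2.48 and 2.86 on the GFP arrays, 2.26 and 2.28 on the HuR arrays, 3.4 and 3.43 on the TIA1 arrays and 3.71 and 3.7 on the TIAR arrays and rose by 1.09, whereas E2F5, described above, fell. CDKN2D, the p19 inhibitor of CDK4 and CDK6, rose by 1.2. POLA1, a DNA polymerase subunit, and CDC45, part of the replicative helicase, separated downwards with differences of -0.65 and -0.35 and were not called. Of 46 G2 and M phase genes, 21 were higher, 0 lower and 0 called. TOP2A, the topoisomerase of dividing cells, read 3.28 and 3.82 on the GFP arrays, 3.32 and 3.44 on the HuR arrays, 4.44 and 4.26 on the TIA1 arrays and 4.42 and 4.24 on the TIAR arrays, and UBE2C, a ubiquitin enzyme of the anaphase-promoting complex, differed by 0.95. The median of the G2 and M phase list was 0.39 on all arrays and 0.24 without GFP 1, when 21 genes separated upwards and 6 downwards, and 10 were higher under normexp background correction.

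Promoters of G2 and M phase genes often carry the cell cycle homology element TTTGAA and the CCAAT box, through which repressor and activator complexes act in turn. On either strand of the RefSeq promoters of GRCh38.p14, from 250 bases before the start of a gene to 50 after it, TTTGAA occurred in 13 of the 18 promoters found for the 21 genes that were higher, in 71.1% of the 38 promoters found for the whole list and in 15.4% of all 27305 promoters. The share was therefore that of the list and not particular to its higher members. The 250 bases before the start are shown for the pair of such genes with the widest gaps, TOP2A (chr17:40417897-40418146, minus strand) and CDCA8, a part of the chromosomal passenger complex (chr1:37692266-37692515, plus strand), 5′ to 3′ with the element or its reverse complement in capitals.
TOP2A: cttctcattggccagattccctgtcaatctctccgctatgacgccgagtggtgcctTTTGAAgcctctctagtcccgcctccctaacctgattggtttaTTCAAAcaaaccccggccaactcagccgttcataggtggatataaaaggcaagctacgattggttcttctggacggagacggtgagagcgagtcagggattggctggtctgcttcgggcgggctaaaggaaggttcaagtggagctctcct
CDCA8: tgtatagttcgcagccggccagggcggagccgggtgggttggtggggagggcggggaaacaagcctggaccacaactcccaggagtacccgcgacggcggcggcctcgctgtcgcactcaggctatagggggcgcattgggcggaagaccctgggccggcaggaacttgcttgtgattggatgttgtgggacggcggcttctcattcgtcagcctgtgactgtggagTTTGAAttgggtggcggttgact

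In the sterol and fatty acid synthesis list 9 of 33 genes were lower on all 4 TIA arrays and 0 were higher, with the lowest median of the 18 lists, -0.59. By limma 0 of the 33 were called. The 9 genes cover much of the cholesterol pathway, from HMGCS1, MVK, MVD and IDI1, which make isoprenoid units, through LSS, which closes the sterol ring, to HSD17B7, NSDHL and SC5DL (now SC5D), which finish it, together with INSIG1, which holds the pathway's transcription factors back when sterol is plentiful. IDI1 read 3.2 and 3.61 on the GFP arrays, 4.04 and 4.15 on the HuR arrays, 2.9 and 2.69 on the TIA1 arrays and 2.82 and 2.81 on the TIAR arrays. HMGCS1 read 2.89 and 3.35 on the GFP arrays, 3.89 and 3.76 on the HuR arrays, 2.71 and 2.32 on the TIA1 arrays and 2.64 and 2.4 on the TIAR arrays. INSIG1 read 3.17 and 3.68 on the GFP arrays, 4.46 and 4.43 on the HuR arrays, 2.97 and 3.01 on the TIA1 arrays and 2.88 and 2.78 on the TIAR arrays. In all 3 the HuR arrays were the highest and the GFP arrays lay between them and the TIA lines. Without GFP 1, 25 of the 33 genes were lower and 0 higher, with a median of -0.71, and between 11 and 24 were lower under the other background corrections and scalings.

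The CCAAT box was present in 8 of the 9 promoters of these sterol genes, in 66.7% of the 27 promoters found for the list and in 35.7% of all promoters. The sterol regulatory element TCACNCCAC, searched on both strands, was in 0 of the 9, in 3.70% of the 27 and in 1.15% of all. With a string this rare, 0 of 9 does not show that these genes lack the element. Over all separating genes the CCAAT box was near its background, in 36.0% of 1698 promoters of genes that were higher and in 38.2% of 911 of genes that were lower. The E-box CACGTG was in 9.66% and 13.0% of them and in 7.43% of all promoters. The cAMP response element TGACGTCA was in 3.95% and 2.52%, beside 1.98% of all. Other motifs were rarer than in all promoters. The AP-1 site TGACTCA was in 3.30% and 2.20%, beside 4.92%, and TTTGAA in 10.8% and 8.56%, beside 15.4%. All promoters include those of genes that were not tested here. An excess over them or a shortfall was therefore not shown to be particular to separating genes. The 250 bases before the start are shown for the pair of sterol genes with the widest gaps and a CCAAT box in them, SC5DL (chr11:121292521-121292770, plus strand) and NSDHL (chrX:152830813-152831062, plus strand), 5′ to 3′ with CCAAT or its reverse complement in capitals. NSDHL has 5 of them, a pair of which overlap, and SC5DL has 1.
SC5DL: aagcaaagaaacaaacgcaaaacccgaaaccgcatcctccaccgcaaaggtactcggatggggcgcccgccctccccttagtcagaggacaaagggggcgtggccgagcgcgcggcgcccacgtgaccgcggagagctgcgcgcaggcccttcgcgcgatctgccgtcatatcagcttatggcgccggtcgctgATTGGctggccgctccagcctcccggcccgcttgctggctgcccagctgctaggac
NSDHL: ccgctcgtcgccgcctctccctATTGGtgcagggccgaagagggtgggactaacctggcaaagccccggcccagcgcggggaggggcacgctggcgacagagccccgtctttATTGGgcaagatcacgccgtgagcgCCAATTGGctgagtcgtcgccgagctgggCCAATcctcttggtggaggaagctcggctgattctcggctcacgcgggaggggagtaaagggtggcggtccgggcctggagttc

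Peroxisome and fatty acid oxidation genes were also lower, 15 of 51 on all 4 arrays against 2 that were higher, with a median of -0.30. PEX6, which recycles the peroxisomal import receptor, read -0.51 and -0.59 on the GFP arrays, -0.57 and -0.68 on the HuR arrays, -1.73 and -1.79 on the TIA1 arrays and -1.4 and -1.91 on the TIAR arrays and was the only member called, with a difference of -1.12 (SE 0.2, limma adjusted p = 0.0255). OXCT1, an enzyme of ketone body use, was lower with a difference of -1.71, CPT2, which brings fatty acids into mitochondria with a difference of -0.98, and the peroxisomal acyl-CoA oxidases ACOX2 and ACOX3 with differences of -1.43 and -1.01. ACAA1, a peroxisomal thiolase, went the other way with 0.73. Without GFP 1 the counts were 26 lower and 2 higher.

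**Figure D2:**
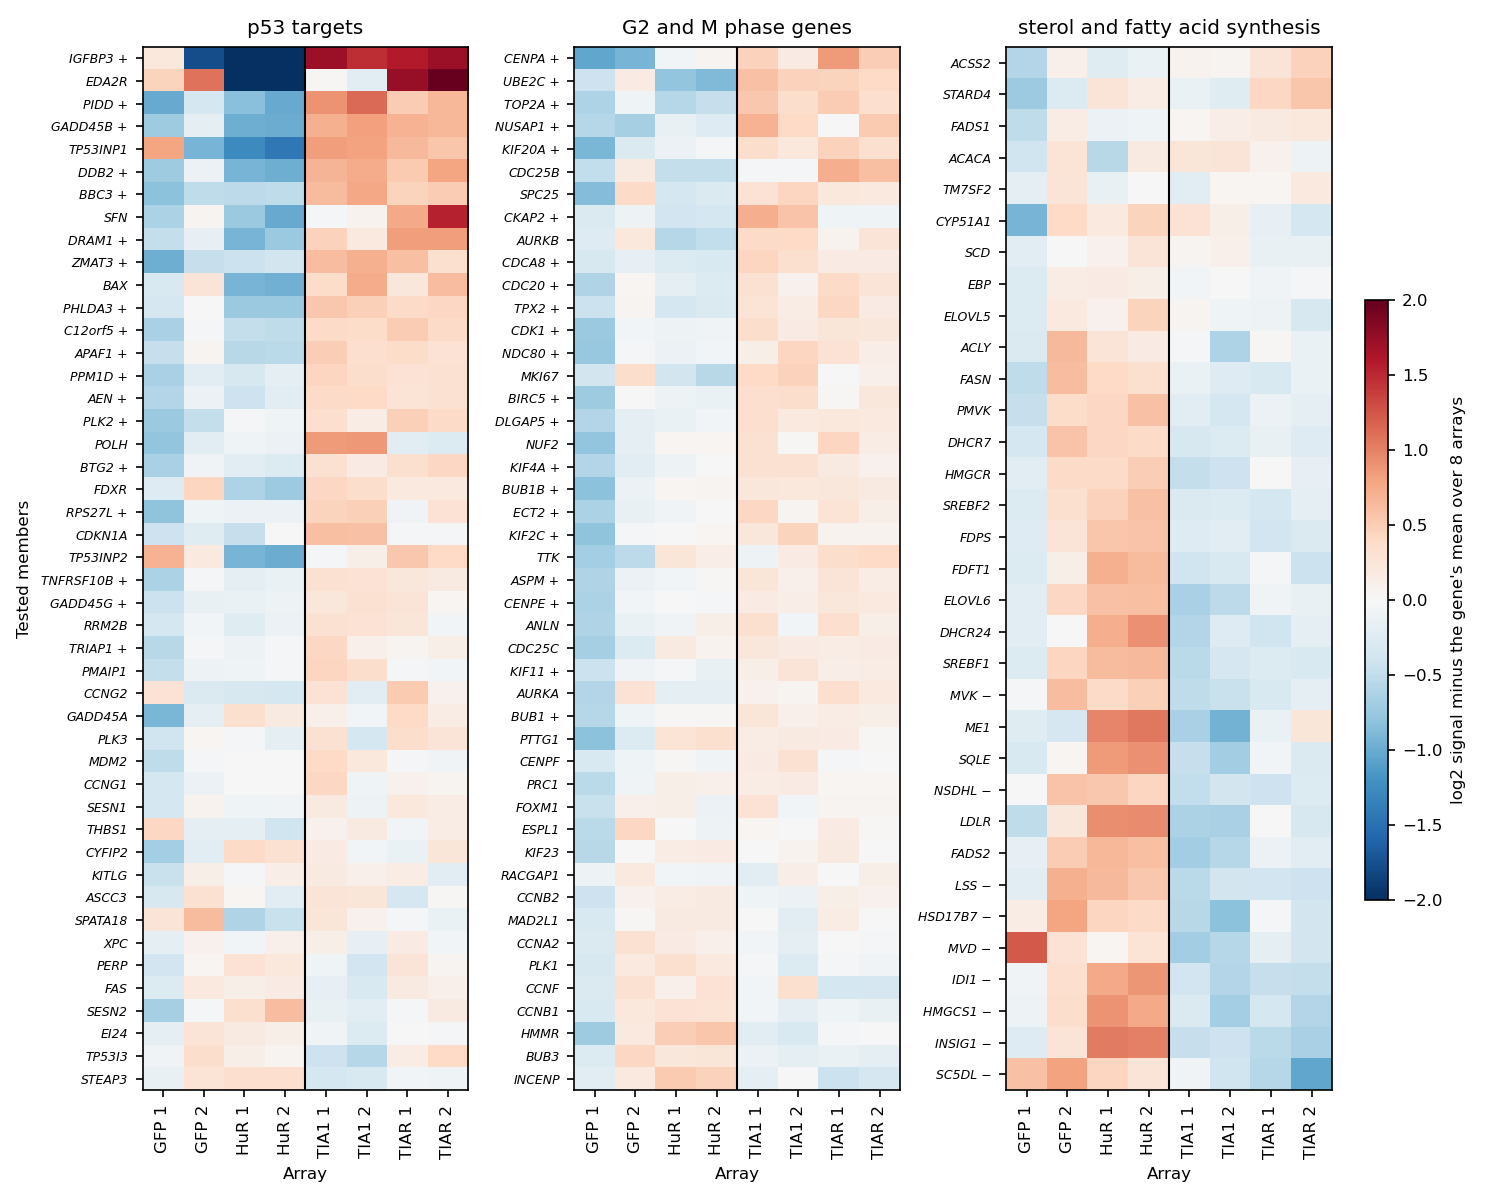
Log2 signal of each tested member (rows) on each array (columns) minus the mean of the gene over the 8 arrays, for p53 targets, G2 and M phase genes and sterol and fatty acid synthesis genes; plus and minus signs mark members that separate upwards and downwards, and the line divides control from TIA arrays. In the first panel 18 of 46 members separate upwards and in the last 9 of 33 downwards, and the GFP 1 column is the lowest for most G2 and M phase genes.

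mRNAs of early response genes and cytokines with AU-rich elements, the class that TIA proteins are known to bind, were higher in 15 of 41 cases and lower in 3, with a median of 0.30 and 3 called. CCL2, a chemokine that attracts monocytes, read -4.4 and -4.45 on the GFP arrays, -5.92 and -6.18 on the HuR arrays, -1.43 and -1.6 on the TIA1 arrays and -1.51 and -1.52 on the TIAR arrays. It was well above background on both GFP arrays, the nearest controls, which lay 2.8 or more below every TIA array, and on neither HuR array, so its fitted difference of 3.73 is taken partly against background (limma adjusted p = 0.00664). IL11, a cytokine of the interleukin-6 family, read -5.14 and -5.8 on the GFP arrays, -5.35 and -5.36 on the HuR arrays, -2.42 and -2.28 on the TIA1 arrays and -2.7 and -2.55 on the TIAR arrays. It was above background on 1 of the 4 control arrays, so its fitted difference of 2.92 is taken mostly against background (limma adjusted p = 0.00188). ZFP36, whose protein tristetraprolin destabilizes ARE mRNAs, read 1.75 and 1.96 on the GFP arrays, 1.98 and 1.81 on the HuR arrays, 3.16 and 3.02 on the TIA1 arrays and 3.29 and 3.28 on the TIAR arrays. All 3 were higher to a like degree with TIA1 and TIAR, which differed by at most 0.27 in them. PIM1, LIF, JUND and FOSB separated upwards by 1.33, 1.22, 1.2 and 1.17 and were not called, and SGK1 had an adjusted p of 0.0339 from limma with a difference of 0.96, under the fold threshold. The chemokines CXCL1 and CXCL2 and MYC were the 3 that were lower. CXCL2 read -0.72 and -1.21 on the GFP arrays, -1.14 and -1.03 on the HuR arrays, -1.85 and -1.89 on the TIA1 arrays and -1.94 and -1.98 on the TIAR arrays, a difference of -0.89 (SE 0.2, limma adjusted p = 0.0489). Leaving out GFP 1 gave 16 higher and 4 lower, and no setting gave fewer than 13 higher.

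Of the RNA-binding proteins of stress granules and AREs, 6 of 32 were higher and 2 lower, TIA1 among the latter. FMR1, the fragile X protein, differed by 0.78 and was not called. Of 30 genes of the MYC network, 4 were higher and 4 lower, which became 4 and 13 without GFP 1 and 4 and 11 after quantile normalization. MYCN was not well above background on any control array and passed the filter through the TIA arrays, where it was at least 2.83-fold higher. MXD3, a partner of MAX that opposes MYC, rose by 1.25. MYC read 3.1 and 3.62 on the GFP arrays, 3.99 and 4.03 on the HuR arrays, 2.9 and 2.81 on the TIA1 arrays and 2.33 and 2.46 on the TIAR arrays, a difference of -1.06 (SE 0.27, limma adjusted p = 0.0789), with a gap of 0.2 between GFP 1 and a TIA1 array. RRP9 and RRP12, which act in ribosome assembly, were lower with differences of -0.75 and -0.94.

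Autophagy and lysosome genes were higher in 13 of 43 cases and lower in 2, with 1 called higher and 1 called lower. CTSD, a lysosomal protease, read 1.74 and 2.1 on the GFP arrays, 2.0 and 1.96 on the HuR arrays, 2.75 and 2.87 on the TIA1 arrays and 2.94 and 2.93 on the TIAR arrays, a difference of 0.92 (SE 0.18, limma adjusted p = 0.0341) that missed the fold threshold. ULK1, the kinase that starts autophagy, differed by 0.71, whereas ATG10, which conjugates ATG12 to ATG5, read -1.77 and -1.43 on the GFP arrays, -1.3 and -1.15 on the HuR arrays, -2.94 and -2.89 on the TIA1 arrays and -2.57 and -2.6 on the TIAR arrays and fell by 1.34. Matrix and adhesion genes separated in both directions, with 14 of 55 higher and 6 lower, and 17 and 12 without GFP 1. COL5A2, a fibrillar collagen chain, read -2.83 and -2.5 on the GFP arrays, -3.82 and -3.5 on the HuR arrays, -0.75 and -0.9 on the TIA1 arrays and -1.02 and -1.02 on the TIAR arrays, a difference of 2.24 (SE 0.31, limma adjusted p = 0.011). TNXB and the integrin gene ITGA8 rose by 1.96 and 1.66, and COL9A2 fell by 1.16. Of 42 heat shock proteins and chaperones, 4 were higher and 4 lower, with a median of -0.15. Without GFP 1, 4 were higher and 22 lower. HSPB1, a small heat shock protein, was the only member called and rose by 1.37, from a control range of 3.77 to 4.36.

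Of 43 ATF4 response genes 6 were higher and 2 lower, and without GFP 1 6 and 7 were. DDIT3 (CHOP) read -0.07 and 0.77 on the GFP arrays, 0.97 and 0.91 on the HuR arrays, 1.61 and 1.79 on the TIA1 arrays and 1.84 and 2.12 on the TIAR arrays and was not called, and PCK2, mitochondrial PEP carboxykinase, was lower with a difference of -1.7, at -2.10 and -2.05 with TIA1 and -0.57 and -0.59 with TIAR. Of 51 translation factors 3 were higher and 5 lower, with EIF2D the only one called, at -1.01, and without GFP 1 23 were lower. Respiratory chain genes separated in 2 of 75 cases in either direction and splicing factors in 4 upwards and 5 downwards of 70, HNRPDL (now HNRNPDL) having fallen by 1.32. Without GFP 1, 18 respiratory chain genes and 24 splicing factors were lower, with 2 and 4 higher. Glycolysis and hypoxia genes were higher in 1 and lower in 6 of 41, among them the hexokinase HK2 with a difference of -0.99, and PDK3, which fell by 1.20. Without GFP 1, 18 of the 41 were lower and 1 higher. Of 78 cytosolic ribosomal proteins 16 were higher, 0 were lower and 0 were called. That direction depended on the scaling, since after quantile normalization 5 were higher and 6 lower and the median fell from 0.30 to 0.01.

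**Figure D3:**
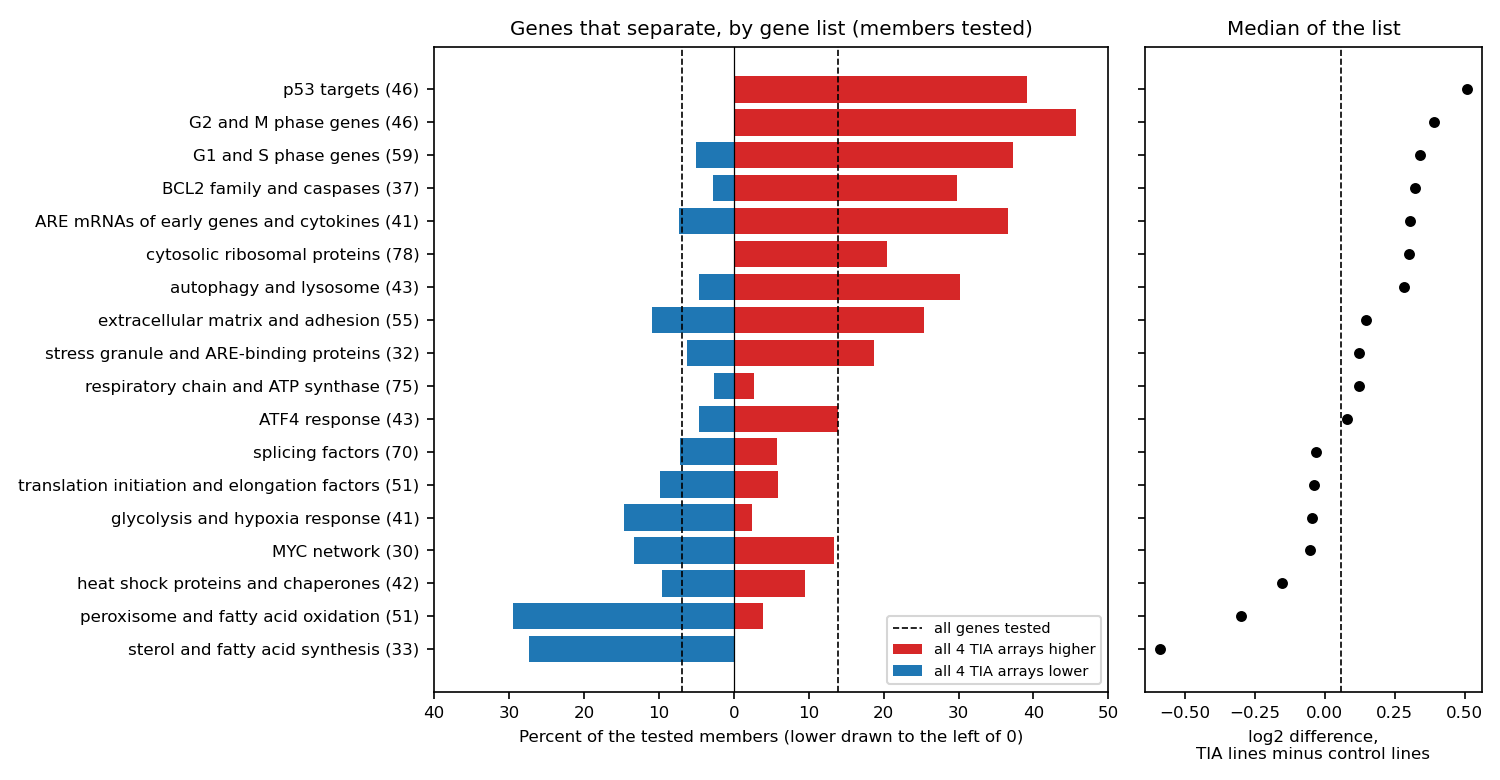
Left, percent of the tested members of each list for which all 4 TIA arrays were higher (right of 0) or lower (left of 0) than all 4 control arrays; right, the median log2 difference of the list; dashed lines give the values of all genes, 13.9%, 6.84% and 0.06. The p53 targets head the list by their median of 0.51 and sterol and fatty acid synthesis closes it at -0.59.

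Genes that the study names in its text or in its list of PCR primers were read as well. HMGN5, a nucleosome-binding protein, read 0.93 and 0.83 on the GFP arrays, 1.49 and 1.55 on the HuR arrays, 0.34 and 0.19 on the TIA1 arrays and 0.36 and 0.32 on the TIAR arrays, and was lower on all 4 TIA arrays with a difference of -0.9 without passing the test (adjusted p = 0.0658 from limma). CCND1, cyclin D1, read -0.55 and -0.25 on the GFP arrays, 1.37 and 1.53 on the HuR arrays, -0.51 and -0.36 on the TIA1 arrays and -0.24 and -0.19 on the TIAR arrays. The HuR arrays stood above all others and the GFP arrays lay among or below the TIA arrays, so the groups overlapped. BAX, a pore-forming protein of mitochondrial apoptosis, read 3.18 and 3.75 on the GFP arrays, 2.55 and 2.53 on the HuR arrays, 3.85 and 4.22 on the TIA1 arrays and 3.71 and 4.11 on the TIAR arrays, with GFP 2 just above a TIAR array. Its dimmer probe had a difference of -0.12, and its groups overlapped as well. That probe read highest on the GFP arrays, at -0.31 and 0.06, and lowest on the HuR arrays, at -1.23 and -1.31. GAPDH, a common reference gene, had a difference of 0.12, which was -0.15 after quantile normalization.

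Probes of the same gene did not always agree. NUP98, a nucleoporin, had one probe (chromosome 11 from 3696747 on hg19) that read between 2.27 and 2.59 in the TIA lines and between 2.80 and 3.33 in the controls. Its dimmer probe (from 3733190) read 1.51 and 2.23 on the GFP arrays, 1.61 and 1.51 on the HuR arrays, 3.71 and 3.66 on the TIA1 arrays and 3.73 and 3.80 on the TIAR arrays. The first separated downwards with a difference of -0.61 and the second upwards by 2.01 (standard error 0.24, adjusted p = 0.00823 from limma), and each had its direction in both TIA lines. Of 1181 separating genes with more than 1 tested probe, all probes separated the same way in 328 (27.8%), and in 44 genes some probe separated the opposite way.

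Because each TIA line has its own control when the lines are paired off, genes picked in one pair could be read in another that shares no array with it. Of 1542 genes at least 2-fold higher in TIA1- than in GFP-expressing cells, 492 (31.9%) were also at least 2-fold higher in TIAR- than in HuR-expressing cells, where 7.06% of all genes were, and 18 were at least 2-fold lower. With the controls exchanged, 484 of 1631 genes (29.7%) that were higher in TIA1- than in HuR-expressing cells were higher in TIAR- than in GFP-expressing cells, beside 6.43% of all genes. Another 119 (7.30%) were at least 2-fold lower there, beside 7% of all genes. Downwards, of 1738 genes lower in TIA1- than in GFP-expressing cells, 185 (10.6%) were lower in TIAR- than in HuR-expressing cells, beside 3.01% of all genes, and 134 (7.71%) were higher. With the controls exchanged 180 of 1041 (17.3%) were lower in TIAR- than in GFP-expressing cells, beside 7% of all genes, and 52 (5.0%) were higher. The same overlaps were also taken as shares of the genes picked with TIAR. The 492 and 185 genes were 33.5% of those higher and 29.6% of those lower in TIAR- than in HuR-expressing cells, where 7.41% and 8.35% of all genes were higher and lower in TIA1- than in GFP-expressing cells. The 484 and 180 genes were 36.2% and 12.4% of those higher and lower in TIAR- than in GFP-expressing cells, beside 7.84% and 5% of all genes in TIA1 against HuR. With GFP 2 alone for the GFP line, the share of 10.6% became 20.7%, with 55 genes (5.28%) in the other direction.

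**Figure D4:**
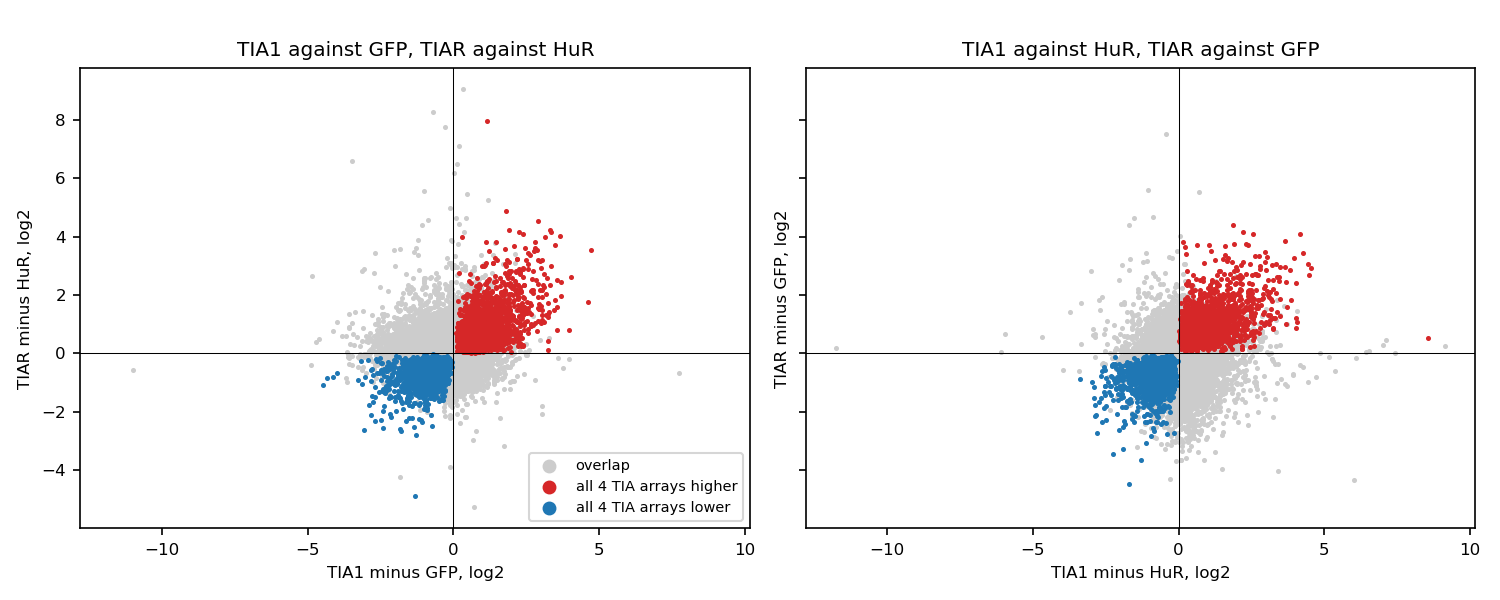
Log2 difference of line means in TIA1- against GFP-expressing cells and TIAR- against HuR-expressing cells (left), and with the controls exchanged (right); each point is 1 of 20805 genes and colours mark genes that separate. The coloured points fill the upper right and lower left of each panel, as the rule requires, with 2882 above and 1423 below, and the grey cloud on the left spreads along the TIA1 minus GFP axis.

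Genes that separate have TIA1 and TIAR on the same side of all controls, which favours genes that are alike in both lines. The count that follows is therefore a description, and no share over all genes tested was taken beside it. In limma with spread taken within lines, 13 of the 4305 separating genes differed at least 2-fold between TIA1 and TIAR (adjusted p under 0.05). Apart from PAPPA none of the 15 genes with the widest gaps in each direction or the 5 with the largest bounds was among them, where PCDH20 differed by 1.21 (adjusted p = 0.0543 from limma) and FAH by 1.03 (adjusted p = 0.125), both higher with TIAR. With 2 arrays per line, a difference that missed the threshold was not shown to be absent.

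Separation was uneven over the chromosomes of the probes. Chromosome 19 had the highest share of genes that were higher, 22.8% of 1361, with 3.67% lower, and chromosome 20 had 19.9% of 544 higher and 2.21% lower, the lowest share of downward genes. On chromosome 13 more genes were lower than higher, 10.6% of 406 against 5.42%. It was 1 such chromosome of 22 on all arrays, and 12 had more genes lower than higher without GFP 1, 13 with the percentile over probes above background, and 0 without GFP 2. The lines did not contribute alike. Relative to the mean of each gene over the 4 lines, the median of chromosome 20 genes was -0.32 in the HuR line, 0.06 in the GFP line, 0.15 in the TIA1 line and 0.13 in the TIAR line, so that the HuR line stood apart. On chromosome 13 the TIAR line was the low one, at -0.17, with 0.12 in both the GFP and TIA1 lines. On chromosome 19 both controls were low, at -0.16 for GFP and -0.06 for HuR, against 0.13 for TIA1 and 0.07 for TIAR. Without GFP 1 the shares higher were 29.0%, 27.4% and 8.62% on chromosomes 19, 20 and 13. Without GFP 2 chromosome 20 passed chromosome 19, with 42.5% against 28.8%.

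**Figure D5:**
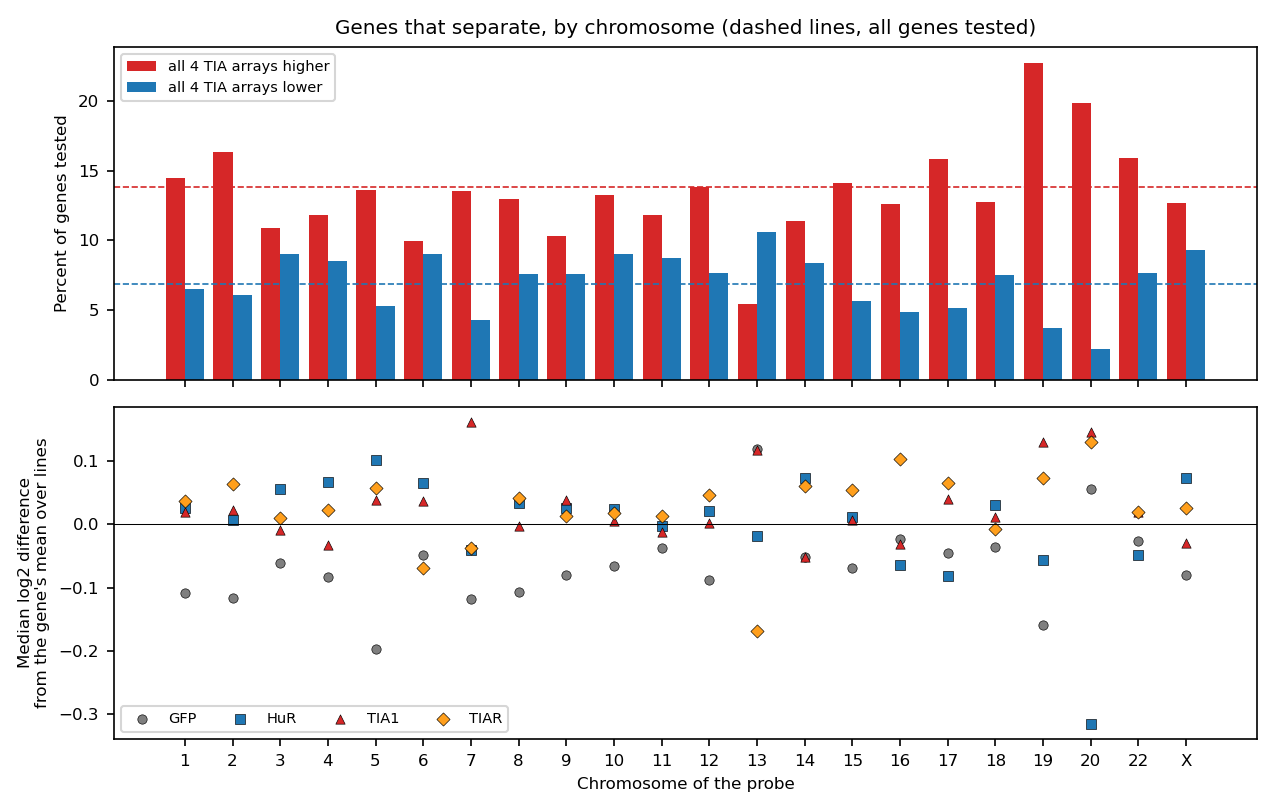
Top, percent of the genes tested on each chromosome that separate upwards and downwards; bottom, median over the genes of each chromosome of the difference between a line and the mean of the 4 lines (log2). Chromosomes with under 300 genes tested are not shown; the HuR line is at -0.32 on chromosome 20 and the TIAR line at -0.17 on chromosome 13.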

How the data were processed

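RNA of the 4 lines was hybridised, with 1 colour, to 8 Agilent human 60-mer expression arrays, 2 per line, on 1 slide. The authors scanned the arrays and deposited Feature Extraction output, in which the processed signal is a linear intensity after background subtraction. They also deposited a table of log2 values normalized over the arrays, which was used only as an alternative. In that table the median was 7.08 on both TIAR arrays and 7.16 to 7.24 on the others. Positions of probes come from the hg19 coordinates of the array.

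Here control spots and outlier spots were left out, spots of a probe were averaged, and log2 processed signal was expressed relative to the 75th percentile of each array. Each array had 62976 spots, of which 58717 were not controls, for 50599 probes; 0 were saturated. Probes well above background on at least 4 of the 7 arrays other than GFP 1 were kept (28109 probes, 20805 gene names). The number of arrays limits the precision. TIA and control arrays were compared with limma (version 3.58.1, R 4.3.3), with cell line as a random block (consensus correlation 0.339) and Benjamini-Hochberg adjustment over all probes kept; a call needed a 2-fold difference and an adjusted p under 0.05. Gene names are those of the array, and 15642 of the 20805 matched a RefSeq symbol. The scripts were tested on simulated data.

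The genes named are the 15 with the widest gap in each direction among genes with a symbol and a signal in every line, up to 5 per direction absent from the lower group by their bound, up to 4 per list and direction by gap, the 3 transcripts without a symbol with the widest gap in each direction, and genes in the study's text or primer list; some genes of this rule are not reported here. Other list members were named after their values were seen. The comparison and the 18 gene lists were chosen with earlier results of these data known. Alternatives changed the background correction, normalization, filter, probe summary, arrays and model. The reading with GFP 2 alone for the GFP line, the sterol and cell cycle motifs and the shares by chromosome were chosen after seeing the data.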

Additional observations from a re-analysis of the deposited data

Results flagged for a closer look

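GFP 1 lay far from the other control arrays in the percentage of probes well above background (86.0), the mean local background (83.2 intensity units) and the median log2 signal (8.12). Over 58 named genes, each examined in the TIA and in the control group, 6 of the 116 groups had 1 array far from the other 3. A rate of 1 in 20 would give 5.8 over the 116, of which 58 were control groups. That rate takes the 4 arrays of a group as alike, while they are 2 lines of 2 arrays. Whether the flags exceed chance can therefore not be read from it. All 6 were control arrays and 5 of them were GFP 1, with values of 2.43 for BBC3, -0.41 for BEND6, -0.20 for CASP8, 0.64 for CASP9 and 2.44 for TIAL1. The remaining one was HuR 1 for ALS2CR8, at -3.94. BBC3, BEND6 and ALS2CR8 separated all the same, and GFP 1 was the control nearest to the TIA arrays in none of these 3.

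The TIA lines differed from each other in 2 of the 58 named genes examined. This was by limma with spread taken within lines over all arrays, the control arrays included. The 58 do not cover every named member of the gene lists. TIAL1, which codes for TIAR, was higher in TIAR- than in TIA1-expressing cells by 3.27 (adjusted p = 0.00602), and PAPPA by 1.63 (adjusted p = 0.0378).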

How the results depend on the processing

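Over the array-level alternatives, upward separations exceeded downward ones in all settings run. Separations stayed within 1.5 times of 2882 and 1423 except for 2599 downwards when the 75th percentile was taken over probes above background on the 7 other arrays and 3554 downwards without GFP 1. Leaving out 1 array gave 3101 to 4048 upwards and 1524 to 3554 downwards. Of the genes that separated, 86.4% of those higher and 67.7% of those lower also did after quantile normalization, and 71.9% and 60.0% did in the authors' values.

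The calls by limma, 413 upwards and 152 downwards, depended more on the setting. Normexp background correction gave 92 downwards, quantile normalization 192 upwards and both together 227 upwards. The authors' values gave 214 and 80, and no filter on dim probes 80 and 17. Leaving out 1 array gave 0 to 627 upwards and 0 to 274 downwards, the lowest without GFP 2 and the highest without GFP 1. The model without a line block called 680 and 293, 4 line means with the spread within lines 892 and 397, and array weights 1295 and 584. With 1 value per line, and by the methods' t-test after adjustment, 0 and 0 were called, with 2595 and 1937 genes at an unadjusted p under 0.05. The replicate block beside the line block called 243 and 67. The numbers did not pair the samples, since deviations of same-numbered arrays correlated between lines at -0.05 to 0.16. The causes were not tested.

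Among named genes the BCL2L1 log2 difference (0.03) became -0.038 with the percentile over probes above background and ranged from -0.057 (without HuR 1) to 0.11 (without GFP 1) when 1 array was left out, with -0.03 without GFP 2 and -0.04 without HuR 2. The GAPDH log2 difference (0.12) became -0.15 after quantile normalization, -0.14 with normexp and quantile, -0.078 in the authors' values, and from -0.00344 (without GFP 1) to 0.24 (without GFP 2) when 1 array was left out. EEF1G became -0.016 after quantile normalization. The mean of a gene's probes turned NUP98 to 0.70. With GFP 2 alone, chosen after seeing the data, the share of genes lower in TIA1- than in GFP-expressing cells that were lower in TIAR- than in HuR-expressing cells went from 10.6% to 20.7%, and that of genes lower in TIAR- than in GFP-expressing cells, read in TIA1 against HuR, from 12.4% to 26.9%.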
